A study of Mus musculus with 13 samples.

Results

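The list of candidate regions for C/EBPα in LSK cells, which are lineage-negative bone marrow cells positive for Sca-1 and c-Kit, held 17899 regions on the mouse assembly mm9. Of these, 6649 regions (37.1%, 95% exact binomial interval 36.4 to 37.9%) had their centre in an intron of a protein-coding gene, in no exon of any protein-coding transcript, and more than 5 kb from the transcription start site (TSS) of every protein-coding gene. Here they are called intronic distal regions. The TSS was that of the transcript with the longest genomic span of each gene, and the rule used positions only, not the score. Another 649 of the 7298 regions centred in introns lay within 5 kb of a TSS. Close inside the limit lay a region in intron 17 of Phf20, 5016 bp from the nearest TSS, and another in intron 1 of Arhgap39 at 5018 bp, with scores of 70.59 and 52.37. Close outside it lay regions in intron 1 of Slc9a3 at 4986 bp and of Zfp385a at 4972 bp, with scores of 63.45 and 56.47.

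The series addressed where C/EBPα binds in stem and progenitor cells, by ChIP-seq, the sequencing of DNA fragments that an antibody pulls down from crosslinked chromatin. The 1 library with a file here was made from sorted LSK cells of C57BL/6 mice with floxed Cebpa alleles and Mx1Cre, a Cre recombinase driven by an interferon-inducible promoter, using the Santa Cruz 14-AA antibody. Its labels give no genotype, and knock-out and wild-type libraries of the series carry the same strain label, so the genotype behind the list is not settled here. The other 12 samples, which include the IgG mock, another C/EBPα library from LSK cells, C/EBPα libraries from granulocyte-monocyte progenitors and libraries of histone marks, are not described. The list is the candidate stage of peak calling with MACS against the IgG mock, and it gives for each region a position and a score. The study then filtered its candidates by peak height, presence in both C/EBPα samples, IgG level and signs of artifacts. It also inspected the peaks by hand, and its final set was far smaller. None of these filters was applied here, so a region below is a candidate and not an established binding site. The score is the −log10 of the p-value from MACS multiplied by 10, so that 50 stands for a p-value of 1e-05. It holds no read numbers. The study shows the mapped reads of its libraries only as a picture, and sequencing depth was not used here. The list holds no expression values either, so the LSK label could not be checked against marker genes. The list is deposited with 1 library, and whether reads of another were pooled into it is not given. There was no replicate check on any value, and all intervals and tests below cover counting error only. Their units are the regions of this list, except in tests of centres against flanks. There the units are windows, taken as independent although a centre and its flanks share a region.

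C/EBPα is a basic leucine zipper transcription factor that binds DNA as a dimer and drives the differentiation of granulocytes and monocytes. Its preferred sites are close to a palindrome, written here as the core word TTGCNNAA. Introns can hold enhancers, which act on the promoter of the host gene or of other genes, and long introns offer more sequence in which a region can fall by position alone. For this reason densities and counts per gene or gene list are set against eligible intron length, which is all sequence that could have held the centre of an intronic distal region.

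The sequences that carry the highest scores are shown first, because they let the C/EBP word be seen in place. They belong to the 8 intronic distal regions with the highest score and to the 4 that hold a product of a ChIP-qPCR primer pair of the study. All are written 5′ to 3′ on the plus strand of mm9 (assembly NCBIM37), and capitals mark TTGCNNAA on either strand, whose reverse complement is read where it lies on the minus strand. In 4 regions the word lay wholly within 70 bp of the centre, and the 141 bp around the centre are given. These were intron 2 of Rnf144a (chr12:27083558-27083698), intron 7 of Gpsm1 (chr2:26181427-26181567), intron 2 of Emilin2 (chr17:71649776-71649916) and intron 1 of Sfpi1 (chr2:90938452-90938592).
Rnf144a: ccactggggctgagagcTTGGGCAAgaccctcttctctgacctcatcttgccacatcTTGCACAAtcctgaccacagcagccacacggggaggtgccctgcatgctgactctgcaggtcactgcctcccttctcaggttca
Gpsm1: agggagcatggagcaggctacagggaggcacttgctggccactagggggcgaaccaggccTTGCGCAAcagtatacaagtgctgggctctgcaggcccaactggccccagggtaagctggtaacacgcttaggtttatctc
Emilin2: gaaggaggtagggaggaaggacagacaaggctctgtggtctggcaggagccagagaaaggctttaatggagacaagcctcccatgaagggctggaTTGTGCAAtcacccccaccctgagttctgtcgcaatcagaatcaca
Sfpi1: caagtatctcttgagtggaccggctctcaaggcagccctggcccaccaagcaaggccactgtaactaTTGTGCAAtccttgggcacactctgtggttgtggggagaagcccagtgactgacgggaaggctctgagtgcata

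In 6 further regions the word nearest to the centre was not wholly inside that window, and 24 bp to each side of it are given. These were intron 5 of Ssh2 (chr11:77223583-77223638), intron 3 of Rarg (chr15:102074014-102074069), intron 19 of Evi5 (chr5:108178392-108178447), intron 2 of Ssh2 (chr11:77200074-77200129), intron 1 of C130039O16Rik (chr12:85534883-85534938) and intron 1 of Gas7 (chr11:67340145-67340200).
Ssh2 intron 5: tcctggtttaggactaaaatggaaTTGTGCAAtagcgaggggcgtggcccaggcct
Rarg: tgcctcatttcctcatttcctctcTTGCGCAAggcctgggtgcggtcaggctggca
Evi5: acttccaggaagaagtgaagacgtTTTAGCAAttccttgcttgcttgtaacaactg
Ssh2 intron 2: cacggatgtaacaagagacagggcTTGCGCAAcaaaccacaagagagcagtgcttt
C130039O16Rik: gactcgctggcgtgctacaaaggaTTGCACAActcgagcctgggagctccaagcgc
Gas7: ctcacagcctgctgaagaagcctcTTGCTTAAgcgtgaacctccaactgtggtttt

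The regions in intron 30 of Myo3a and intron 3 of Dab2ip held no core word anywhere, and their sequences are not printed. The exact palindrome TTGCGCAA appeared in the stretches of Gpsm1, Rarg and Ssh2 intron 2, and TTGCACAA or its reverse complement TTGTGCAA in those of Rnf144a, Emilin2, Sfpi1, Ssh2 intron 5 and C130039O16Rik.

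Ssh2, a slingshot phosphatase that acts on the actin regulator cofilin, held the intronic distal region with the highest score, 1918.38 at chr11:77223413-77224088 in intron 5. It also held a region of score 992.55 at chr11:77199739-77200276 in intron 2. It was the only gene apart from Gm20388, described below, with more than 1 region of a score of at least 200. Rarg, a retinoic acid receptor, followed with a score of 1547.16 at chr15:102073509-102074384, in intron 3. The region in Rnf144a, an E3 ubiquitin ligase, scored 1294.77 (chr12:27083163-27084092), that in Evi5, a regulator of Rab GTPases, 1104.93 (chr5:108178211-108178977), and that in Gpsm1, a modulator of G protein signalling, 1066.79 (chr2:26181159-26181835). The region in Myo3a, a class III myosin, scored 1007.77 (chr2:22443720-22445935), but 47.1% of its 32-mers also occur in the mitochondrial genome and it was 2216 bp wide. Among the intronic distal regions with a score of at least 200 it was the only one that shared any 32-mer with mitochondrial DNA.

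The remaining hosts among the 20 highest scores were C130039O16Rik (927.33), Emilin2 (763.84), Cpa6 (754.68), Mtdh (724.35), Nrip1 (689.01), Map3k1 (688.41), Fer1l6 (679.43), Runx2 (641.56), Sfpi1 (637.44), Zc3h12d (632.72), Klhl6 (602.86), Hivep2 (561.14) and Gas7 (559.80). They include transcription regulators, namely Sfpi1, which encodes the ETS factor PU.1, the runt factor Runx2, the zinc finger factor Hivep2 and the nuclear receptor corepressor Nrip1. Emilin2 encodes an extracellular matrix glycoprotein, Map3k1 a MAP kinase kinase kinase, and Gas7 a protein that binds membranes and actin. The region of Cpa6, a carboxypeptidase gene, lay in intron 10, 93304 bp from the nearest TSS, which was that of Arfgef1. The region of Fer1l6 in intron 24 lay 68486 bp from the nearest TSS, that of Tmem65. The annotation holds 2 gene models named Runx2, with 2 and 4 intronic distal regions, and the region of score 641.56 belongs to the model ENSMUSG00000092206.1.

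The primer pairs that the study named Emilin2, Gas7, Dab2ip and Sfpi1 intron had their products inside intronic distal regions. The Emilin2 product (chr17:71649819-71649935, 117 bp) held the printed core word of that region, and so did the Sfpi1 intron product (chr2:90938462-90938560, 99 bp). The Gas7 product (chr11:67340279-67340394, 116 bp) did not include the printed word. Dab2ip, which encodes a Ras GTPase activating protein, had its product at chr2:35535955-35536049 (95 bp) in a region that scored 439.22. The product of the pair named Sfpi1 enhancer fell in a region of score 187.88 within 5 kb of the TSS that the longest Sfpi1 transcript has, and so outside the intronic distal regions.

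Distance to a promoter depended on which transcripts were counted. Of the 6649 regions, 435 (6.54%) lay within 5 kb of the TSS of a shorter protein-coding transcript, and of the 95 with a score of at least 200 there were 13 (13.7%). Among them were 4 of the 20 with the highest score. The region in C130039O16Rik was centred 65 bp from such a TSS, that in Sfpi1 1585 bp, that in Gpsm1 2386 bp and that in Rarg 2984 bp. The regions in Ssh2, Rnf144a, Evi5, Emilin2, Runx2 and Gas7 named above were more than 5 kb from the TSS of every protein-coding transcript.

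The intronic distal regions had a median score of 71.8, with quartiles of 59.7 and 90.6 and a highest value of 1918.38, against a median of 73.8 for all regions. A score of at least 100 was reached by 1149 of them (17.3%), where 20.3% of all regions reached it, and by 2481 of the 11250 remaining regions (22.1%; two-sided p = 1.15e-14, Fisher's exact test). A score of at least 200 was reached by 95 (1.43%), where 2.06% of all regions did, and by 273 of the other regions (2.43%; Fisher's exact test, p = 4.22e-06). Of the 1866 regions within 5 kb of a TSS 138 (7.4%) had a score of at least 200 (Fisher's exact test, p = 7.49e-36). Against the 8600 intergenic distal regions, of which 127 (1.48%) did, the difference in share was -0.048 percentage points (Fisher's exact test, p = 0.838). Among the 20 regions of the whole list with the highest score 3 were intronic distal, and among the 100 highest 24.

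Per length of sequence, introns far from promoters held 8.05 regions per Mb (95% exact Poisson interval 7.86 to 8.24) over 826 Mb of eligible intron. Intergenic distal sequence held 5.8 per Mb (5.67 to 5.92), sequence within 5 kb of a TSS 9.26 (8.85 to 9.69), and exons beyond 5 kb 16.7 (15.5 to 17.9). For regions with a score of at least 200 the densities were 0.115 per Mb (0.093 to 0.141) in introns, 0.0856 (0.0713 to 0.102) in intergenic distal sequence and 0.685 (0.576 to 0.809) within 5 kb of a TSS. Exons beyond 5 kb held 0.17 (0.0736 to 0.336), from 8 regions. The intronic distal regions were 219 to 9052 bp wide with a median of 586 bp, and 896 of them (13.5%) overlapped an exon although their centre did not. The widest, in intron 1 of C130026I21Rik, scored 72.07, and 64.3% of its 32-mers occur at more than 1 place in the genome. For 337 regions (5.07%) at least 50% of the 32-mers were repeated in this way, against 14.3% of the intergenic distal regions. None of the 95 regions with a score of at least 200 was among them.

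Over all regions the densities of intron 1 and of later introns were close. Intron 1 held 1484 regions (22.3%) in 23.1% of the eligible length, or 7.77 per Mb, and all later introns held 5165, or 8.13 per Mb. The ratio of these densities was 0.956 (95% exact interval 0.901 to 1.01). It was 0.937 (0.879 to 0.999) beyond 10 kb from a TSS and 0.936 (0.88 to 0.994) with the TSSs of all transcripts. It turned to 1.11 (1.05 to 1.18) for regions without exon overlap, where the eligible length was not reduced to match. Between introns 1 and 10 the density ranged from 7.23 per Mb in intron 6 to 9.78 (8.48 to 11.2) in intron 10, whose interval lay above the 8.05 of all introns. The median intron number was 4, and the highest 110.

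The regions with a score of at least 200 were denser in intron 1 than in later introns, although not under every setting. No test compared the classes of score. Of these 95, 32 (33.7%) lay in intron 1, at 0.168 per Mb, and 63 in later introns, at 0.0992 per Mb, so that the ratio was 1.69 (1.07 to 2.63). Of the 32, 2 lay in intron 1 of Gm20388, a gene model that spans 4435 kb, and the ratio without this model was not computed. For scores from 50 to 100 the ratio was 0.96 (0.9 to 1.02) and for scores from 100 to 200 it was 0.877 (0.753 to 1.02). Counting only regions over 5 kb from the TSSs of all protein-coding transcripts left 26 regions in intron 1 and 56 in later introns, and the ratio of 1.57 then had an interval that included 1 (0.947 to 2.54). Sfpi1, Map3k1, Mtdh, Klhl6, Hivep2 and Gas7 had their high-scoring region in intron 1, whereas Evi5 (intron 19), Fer1l6 (intron 24), Cpa6 (intron 10) and Csmd1 (intron 65, score 248.89) had it far downstream. The GC content of eligible sequence was 42.6% in intron 1 and 42.2% in later introns.

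**Figure D1:**
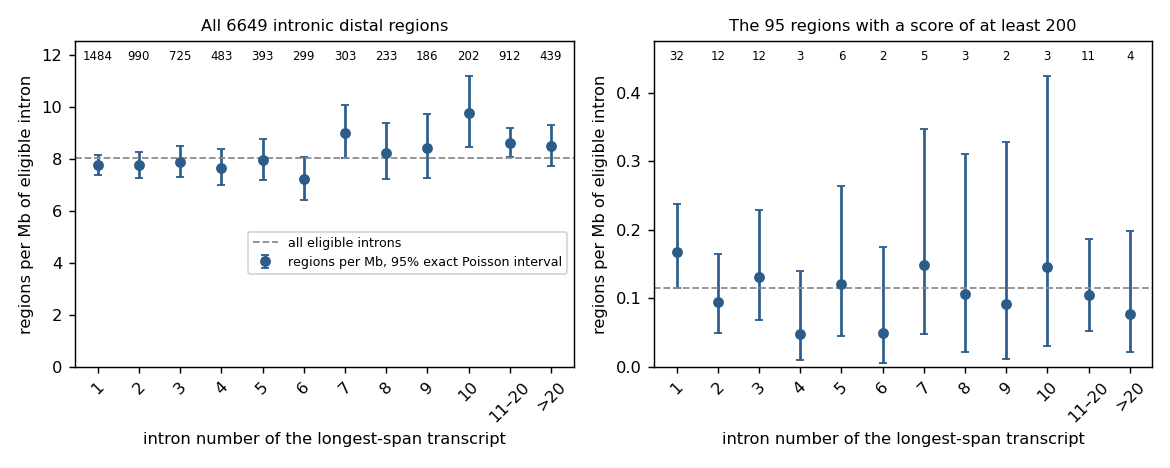
Regions per Mb of eligible intron by intron number, for all 6649 intronic distal regions (left) and the 95 with a score of at least 200 (right). Points are densities with 95% exact Poisson intervals, numbers at the top are counts, and the dashed line is the density over all introns. Introns 1 to 10 range from 7.23 to 9.78 per Mb around the line of 8.05, while for high scores intron 1 is at 0.168 per Mb against 0.115 over all introns.

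Within introns, the density fell with distance from the nearest exon. It was 10.3 per Mb (9.73 to 10.9) within 500 bp of an exon, 8.5 (8.01 to 9.02) at 2 to 5 kb and 4.84 (4.34 to 5.39) beyond 50 kb. The high-scoring regions did not follow this order, with 0.112 per Mb within 500 bp and a highest value of 0.209 (0.135 to 0.309), from 25 regions, between 5 and 10 kb. With distance from the nearest TSS the density of all regions showed no fall up to 50 kb. It was 9.22 per Mb (8.55 to 9.93) at 5 to 10 kb, 9.53 at 10 to 20 kb and 9.24 at 20 to 50 kb. Beyond 200 kb it was 4.39 (4.04 to 4.76). For scores of at least 200 it was 0.157 (0.0812 to 0.275) at 5 to 10 kb, 0.176 (0.109 to 0.269) at 10 to 20 kb and 0.0463 (0.017 to 0.101) beyond 200 kb. The median distance to a TSS was 40542 bp, and 34029 bp for the high-scoring regions. The nearest TSS was that of the host gene for 4407 regions (66.3%) and for 62 of the 95 high-scoring ones (65.3%). In the remainder, as for the regions in Rarg (nearest TSS Itgb7) and Myo3a (Gad2), another gene model started closer. This model can carry the name of the host, as for the high-scoring regions of Ssh2 and Runx2.

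On chromosome X there were 28 intronic distal regions in 38.1 Mb, or 0.735 per Mb, against 8.41 per Mb on the autosomes, a ratio of 0.0874 (0.058 to 0.126). The other regions of the list were also sparse there (124 regions; ratio 0.144, 0.12 to 0.172). Eligible introns had a GC content of 38.6% on chromosome X and 42.5% on the autosomes, and the part of this difference was not tested. Sept6, a septin gene, and Kdm6a, a histone H3K27 demethylase gene, had the regions on X with the highest scores, 308.72 and 292.64. Among the autosomes the density ran from 6.69 per Mb on chromosome 18 to 9.46 on chromosome 17.

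Around the centres, the C/EBP core word depended on the score. Of all 6649 intronic distal regions, 435 (6.54%) had it no more than 70 bp from their centre, where 7.41% of all regions held it. It was in 5.49% of the 13298 windows of the same length 1000 bp to both sides (Fisher's exact test, Benjamini-Hochberg over the 10 words searched, adjusted p = 0.0064). The difference of 1.05 percentage points became 0.948 (adjusted p = 0.0618, Fisher's exact test) with 150 bp to each side and 0.767 (adjusted p = 0.0551, Fisher's exact test) with flanks at 2000 bp, and so did not pass under either setting. For scores from 50 to 100, which is 5500 regions, the shares were 5.69% at centres and 5.5% in flanks (adjusted p = 0.614, Fisher's exact test). The exact palindrome TTGCGCAA, a rare form, differed in this class too, with 7 of 5500 centres and 0 of 11000 flanks (Fisher's exact test, adjusted p = 0.00114), and over all scores it was at 17 centres and in 1 flank (adjusted p = 3.14e-07, Fisher's exact test). For scores from 100 to 200 the core word was at 8.06% of centres and in 5.46% of flanks (Fisher's exact test, adjusted p = 0.0174). For scores of at least 200 the word was at the centre of 37 of 95 regions (38.9%, 29.1 to 49.5%) and in 5.26% of flanks (Fisher's exact test, adjusted p = 2.79e-11). Anywhere in the region it occurred in 73 of the 95 (76.8%), and 16 held it more than once. Over all intronic distal regions 22% held it anywhere. The 95 are wider, with a median of 772 bp against 586 bp, and a wider region has more room for a word. The profile of the word along the high-scoring regions rose to 18.9% of regions in the 50 bp after the centre and 17.9% in the 50 bp before it. At 250 to 300 bp it was 1.05% before the centre and 3.16% after it. For scores from 50 to 100 it stayed between 1.73% and 2.33% throughout.

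**Figure D2:**
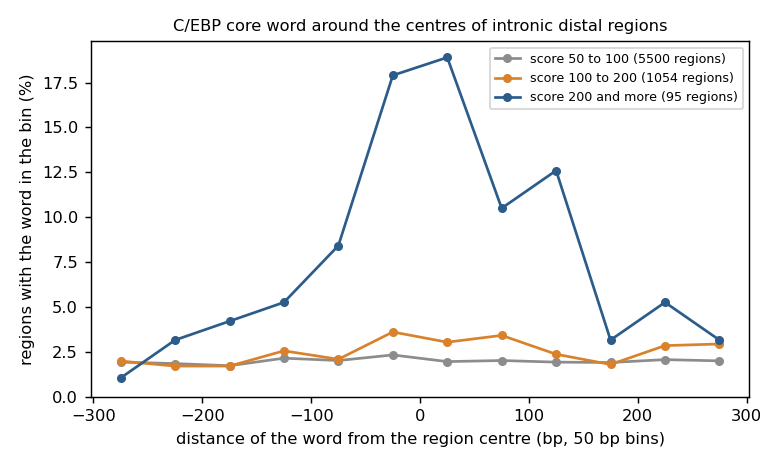
Share of intronic distal regions with the word TTGCNNAA, on either strand, in each bin of 50 bp up to 300 bp from the region centre, for 3 classes of score. The 95 regions with a score of at least 200 peak at 18.9% next to the centre, while the 5500 regions with a score from 50 to 100 stay flat at 1.73% to 2.33%.

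The letters between the fixed ends of the core word are given for the most frequent forms, with no test. TTGCACAA was at the centre of 18 of the 95 high-scoring regions (18.9%) and of 0.927% of those with a score from 50 to 100. TTGCGCAA was at 6 (6.32%) and 0.127%, TTGCCCAA at 5 (5.26%) and 0.491%, and TTGCATAA at 4 (4.21%) and 0.345%. The reversed control word AANNCGTT, which has the letters of the core in opposite order, was at 0 of 95 high-scoring centres (upper bound of the exact interval 3.81%) and at 1.05% of their flanks. The core word was in 5.26% of those flanks, so the control is a rarer word, and its count of 0 in 95 says little. Over all intronic distal regions this control was lower at centres, at 1.04% against 1.42% in flanks (Fisher's exact test, adjusted p = 0.034).

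Of the words of other factors, the ETS word AGGAAG was higher at high-scoring centres. It was at 33 of the 95 (34.7%) and in 18.9% of their flanks (Fisher's exact test, adjusted p = 0.0169). This excess was not confined to high scores. Over all intronic distal regions AGGAAG stood at 18.9% of centres against 16.5% of flanks (adjusted p = 1.07e-04, Fisher's exact test). With scores from 50 to 100 it stood at 19% against 16.7% (Fisher's exact test, adjusted p = 8.67e-04). Between 100 and 200 the difference did not pass, with 16.5% against 15.2% (adjusted p = 0.5, Fisher's exact test). ETS factors include PU.1, a partner of C/EBPα in myeloid cells. Anywhere in the region the ETS word occurred in 81 of the 95 (85.3%), where 57% of all intronic distal regions held it. The 95 are wider (median 772 bp against 586 bp), and the part of width was not tested. The core word and the ETS word were both at the centre of 14 of the 95, from 37 and 33 with each, and both anywhere in the region in 62, from 73 and 81, and whether they occurred together more than apart was not tested. The RUNX word TGTGGTT was at 7.37% of high-scoring centres and in 4.21% of flanks, which did not pass the test (Fisher's exact test, adjusted p = 0.339). For scores from 50 to 100 it was lower at centres, at 2.78% against 3.77% (Fisher's exact test, adjusted p = 0.00186). From 100 to 200 it was at 4.84% against 3.27% (adjusted p = 0.0903, Fisher's exact test), and over all scores at 3.17% against 3.7% (adjusted p = 0.0762, Fisher's exact test). The AP-1 word TGANTCA was at 4.21% of high-scoring centres and in 6.84% of flanks (adjusted p = 0.488, Fisher's exact test). The word TGATGCAA, of C/EBP and ATF dimers, was at 3 high-scoring centres (3.16%) and in 0.526% of flanks (Fisher's exact test, adjusted p = 0.219). Over all intronic distal regions it passed, at 0.632% against 0.376% (Fisher's exact test, adjusted p = 0.0241). It also passed for scores from 50 to 100, at 0.545% against 0.309% (adjusted p = 0.04, Fisher's exact test). From 100 to 200 it did not, at 0.854% against 0.712% (adjusted p = 0.742, Fisher's exact test). The GATA word AGATAA was lower at centres over all intronic distal regions, at 4.56% against 7.96% in flanks (Fisher's exact test, adjusted p = 1.80e-19), and so was TTACNNAA, at 3.76% against 6.17% (adjusted p = 1.21e-12, Fisher's exact test). At scores of at least 200 TTACNNAA lay in the opposite direction, at 11.6% of centres and in 4.74% of flanks, which did not pass the test (Fisher's exact test, adjusted p = 0.118). Both the GATA word and TTACNNAA are rich in A and T, and the median GC content was 51.1% at centres and 44.7% in flanks, so the part of base composition in these differences was not tested.

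Compared with the other regions, the core word was at 6.54% of intronic distal centres and 7.93% of other centres (Fisher's exact test, adjusted p = 0.00204). Within classes of score this difference did not pass the test, as the shares were 5.69% and 6.45% for scores from 50 to 100 (Fisher's exact test, adjusted p = 0.337), 8.06% and 9.33% from 100 to 200 (adjusted p = 0.528, Fisher's exact test) and 38.9% and 44% at 200 and more (adjusted p = 0.803, Fisher's exact test). The SP1 word CCCGCCC, typical of GC-rich promoters, did separate the high-scoring sets. It was at 0 of the 95 intronic distal centres and at 34 of the 273 others (12.5%; Fisher's exact test, adjusted p = 4.00e-04). Of these 34, 31 belonged to the 138 regions within 5 kb of a TSS and 3 to the 127 intergenic distal ones (2.36%, 0.49 to 6.75%). Median GC at the centre was 49.6% in the intronic distal, 58.9% in the promoter-near and 50.4% in the intergenic distal regions of this score. The ETS word was at 34.7% of intronic distal and 23.4% of other high-scoring centres, which did not pass after adjustment (Fisher's exact test, adjusted p = 0.21).

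In all 17899 windows of this length the ETS word occurred in 18.7%, TTGCGCAA in 0.525%, TTACNNAA in 3.74%, AANNCGTT in 1.01%, TGATGCAA in 0.715%, TGTGGTT in 3.11%, AGATAA in 4.61%, TGANTCA in 3.93% and CCCGCCC in 1.58%. All were sought on both strands. TTGCGCAA is a form of the core word, and TGATGCAA shares the letters GCAA with its reverse complement. A match is a match of letters only.

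**Figure D3:**
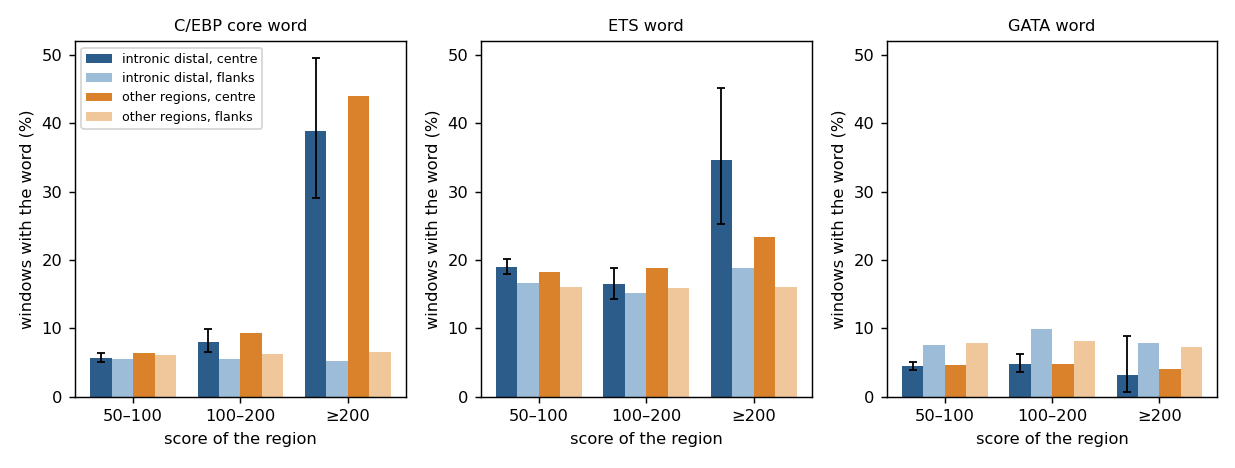
Share of windows with the C/EBP core word (TTGCNNAA), the ETS word (AGGAAG) and the GATA word (AGATAA) by score of the region, within 70 bp of the centre and in windows of the same length 1000 bp away, for intronic distal and other regions. Bars start at 0, and the black lines are 95% exact binomial intervals for intronic distal centres. The C/EBP word stands at 38.9% of intronic distal and 44% of other centres with a score of at least 200, and near its flank level at scores from 50 to 100.

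The 6649 regions lay in 3803 host genes, which is 24.9% of the 15299 genes with any eligible intron. Of these hosts 2372 held 1 region, 779 held 2 and 652 held 3 or more, and these 652 accounted for 2719 regions (40.9%). There were 164 hosts with at least 5 and 17 with at least 10. Hosts with several regions had long introns. The median eligible length was 216 kb for hosts with 3 or more regions, 47 kb for hosts with 1, and 13 kb for genes with none. Per length, however, the longest genes held the fewest. When genes were ranked by eligible length and split into 5 bins of equal total length, the density was 9.63 per Mb (9.17 to 10.1) in the bin of the shortest genes, 9.41 (8.95 to 9.89) in the next, then 8.95 and 7.41, and 4.83 (4.51 to 5.18) in the 208 genes of 468 kb and more. A split by GC content of the introns gave a wider range, from 2.83 per Mb (2.58 to 3.1) in the bin up to 38.6% GC to 13 per Mb (12.4 to 13.5) in the bin above 45.7%. The 95 high-scoring regions followed the same direction, with 6 in the bin of lowest GC and 41 in the highest.

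Several of the hosts with most regions had gene models of very long span. Gm20388 held 34 regions, where its eligible length of 2235 kb would hold 18 at the overall density. It is annotated with 1 transcript that spans 4435 kb on chromosome 8, and all 34 lay in its intron 1, with 1.52 per 100 kb (1.05 to 2.13) at a GC content of 51.3%. Fgfr2, a fibroblast growth factor receptor gene, held 19 where its length would hold 10.7. Its longest transcript spans 3009 kb and the next longest 104 kb, and only 3 of the 19 lay inside a second transcript. Arfip1 held 12 where its length would hold 7.81, with spans of 1391 and 86.4 kb, and 2 of the 12 lay inside a second transcript. Over all hosts with at least 2 protein-coding transcripts, 897 of 5157 regions (17.4%) lay inside the span of 1 transcript alone.

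Other hosts of many regions had at least 8 of them inside a second transcript. Camta1, a calmodulin-binding transcription activator gene, held 18 where its length would hold 6.27, over 6 introns, at 2.31 per 100 kb (1.37 to 3.65). Agap1, an ADP-ribosylation factor GTPase activating protein gene, held 12 where 3.43 would be held, at 2.81 per 100 kb (1.45 to 4.91). Wwox, an oxidoreductase gene, held 14 against 7.27 by length, Rbms3, an RNA-binding protein gene, 12 against 8.4, and Kalrn, a guanine nucleotide exchange factor gene, 11 against 4.62. Macrod2, which encodes a macrodomain protein, held 11 in 1959 kb, where 15.8 would be held, at 0.561 per 100 kb (0.28 to 1). Its introns had a GC content of 38.6%, those of Camta1 49.1% and those of Agap1 48.6%. Accn1, Cacna1c and Sdk1, genes of ion channels and a neuronal adhesion protein, also held 11 each, but no more than 4 of these lay inside a second transcript. None of the hosts with 11 or more regions, apart from Gm20388, Fgfr2 and Macrod2, held a region with a score of at least 200.

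By number per 100 kb, the hosts with at least 3 regions were led by short genes with small counts. Slc6a19, a neutral amino acid transporter gene, held 3 regions in 11.4 kb, or 26.3 per 100 kb (5.42 to 76.8). It was followed by Rimkla (16.1), Fam70b (15), Mrps35 (13.5), Metap1 (13), Smad9 (11.3), Slc22a4 (10.9), Helq (10.4), Rcor3 (9.68) and Ltn1 (9.2). Smad9, which encodes a BMP-responsive transcription factor, held 4 regions in 35.4 kb, as did Slc22a4, a cation transporter gene, in 36.6 kb. No region of these 10 hosts had a score above 122.72, and their intervals overlap, so they cannot be ordered.

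**Figure D4:**
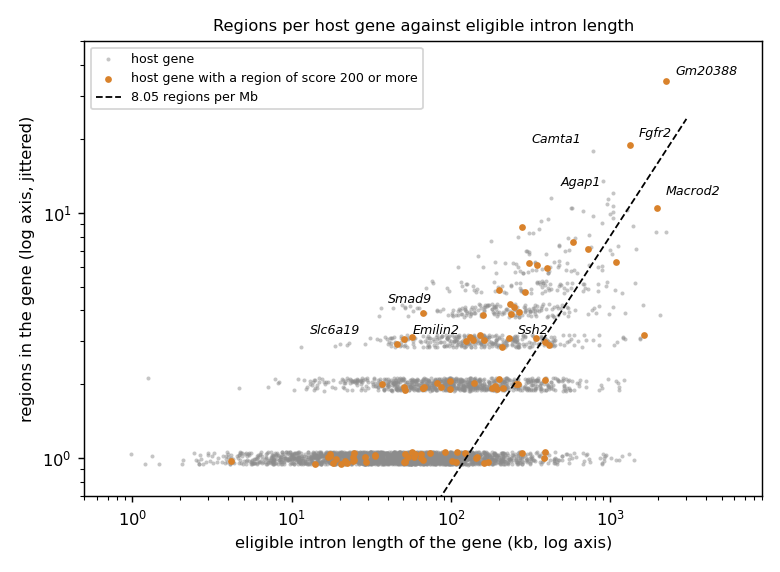
Number of intronic distal regions in each of the 3803 host genes against its eligible intron length, both on log axes, with points jittered along the vertical axis. Genes without a region are not drawn, and the dashed line is 8.05 regions per Mb. Orange points are the 93 genes with a region of score 200 or more, and hosts with 3 or more regions have a median length of 216 kb against 47 kb for hosts with 1.

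The functions of the hosts were described with 9 gene lists of 451 symbols, of which 449 were found in the annotation. The lists were chosen with earlier results of these data known, and their intervals carry no allowance for the number of lists. For 7 of the lists the interval of the ratio of regions to what eligible length would hold included 1. Transcription factors of hematopoiesis held 54 regions where length would hold 45.2, a ratio of 1.19 (95% exact Poisson interval 0.897 to 1.56). Cytokine receptors and their signalling proteins held 14 against 16.9 (0.826, 0.452 to 1.39), small GTPase and actin regulators 89 against 92.6 (0.961, 0.772 to 1.18), and immune receptor kinases, phosphatases and adaptors 55 against 53.1 (1.04, 0.78 to 1.35). Chromatin regulators held 46 against 46 (0.999, 0.732 to 1.33), metabolic genes 76 against 71.8 (1.06, 0.834 to 1.32), and genes of the cell cycle and DNA repair 36 against 33.8 (1.06, 0.746 to 1.47).

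Genes of the synapse and of neuronal adhesion held fewer than their length, with 174 regions against 419 and a ratio of 0.415 (0.355 to 0.481). Their 52.1 Mb of eligible intron had a GC content of 39.1%, against 42.3% over all introns. Set against genes of like intron GC, in 5 bins of equal total length, they would hold 259 and the ratio was 0.672 (0.576 to 0.78), and against genes of like length, in 5 such bins, 263 (0.662, 0.567 to 0.767). Adhesion and matrix genes held 40 against 27.7, a ratio of 1.44 (1.03 to 1.97), which became 1.27 (0.904 to 1.72) among genes of like GC, 1.32 (0.944 to 1.8) among genes of like length and 1.38 (0.989 to 1.88) without chromosome X. For metabolic genes the ratio was 1.32 (1.04 to 1.65) among genes of like length and 1.08 (0.851 to 1.35) among genes of like GC. Wwox alone held 14 of their 76 regions, and the ratio without it was not computed. The comparisons among genes of like GC or length were added after the values had been seen.

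**Figure D5:**
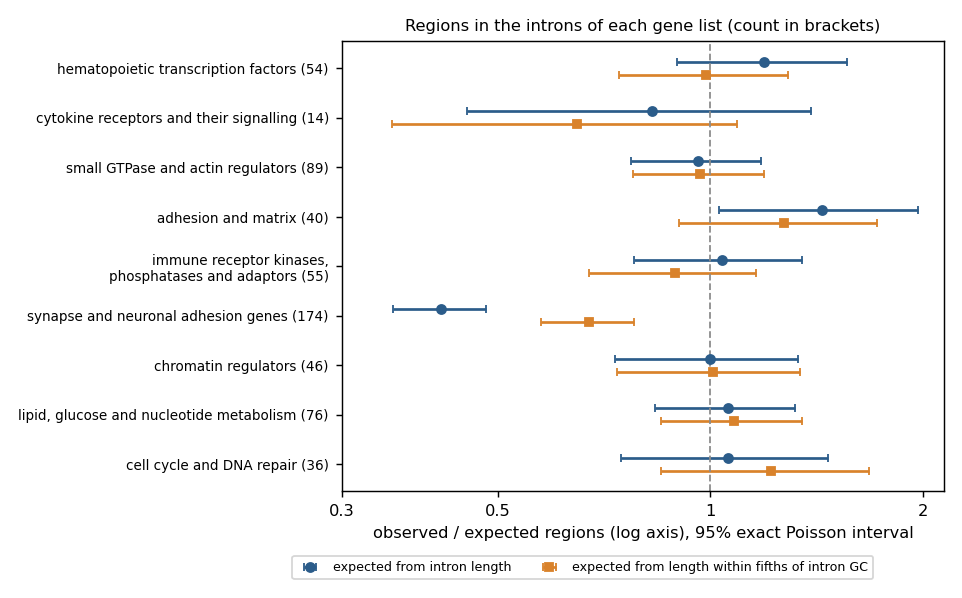
Observed over expected number of intronic distal regions in the introns of 9 gene lists, on a log axis, with 95% exact Poisson intervals and the count in brackets. Expected numbers come from eligible intron length alone (circles) or from length within 5 bins of intron GC (squares), and the dashed line is 1. Synapse and neuronal adhesion genes lie below 1 in both (0.415 and 0.672), and the interval for adhesion and matrix genes excludes 1 only for length alone.

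At scores of at least 200 the lists held few regions each. Among hematopoietic transcription factors there were 3 where length would hold 0.646 (ratio 4.64, 0.957 to 13.6), in Runx2, Sfpi1 and Runx1. With the TSSs of all transcripts the list would hold 2, without that in Sfpi1. The Runx1 region scored 449.97 in intron 2 (chr16:92715475-92716159), 110494 bp from the nearest TSS and 18244 bp from that of a shorter transcript, and Runx1 is a master regulator of definitive hematopoiesis. The list's regions had a median score of 67.7, and its hosts with the largest numbers were Prdm16 with 8 against 2.47 by length (highest score 67.98) and Nfia with 6 against 3.3 (highest 104.26). The small GTPase and actin list held 5 high-scoring regions against 1.32 by length (3.78, 1.23 to 8.82), namely the pair in Ssh2 and those in Gas7, Dab2ip and Dock4. This ratio is a description, since the lists were chosen with earlier results of these data known and the regions of Ssh2 share a host. Dock4, a guanine nucleotide exchange factor gene, had its region in intron 1 with a score of 269.33, and Arhgap26 held the most regions of the list, 8 against 4.84 by length, with none above 92.25.

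The cytokine list held 2 high-scoring regions where length would hold 0.242 (ratio 8.26, 1 to 29.8), against a ratio of 0.826 over all its regions. They lay in Tnfrsf1b, a receptor for tumour necrosis factor, with 526.11 in intron 1 (chr4:144830517-144831533), and in Smad3, a mediator of TGF-β signalling, with 217.66. The Smad3 region was 4449 bp from the TSS of a shorter transcript, so that with the TSSs of all transcripts the list would hold only that in Tnfrsf1b. The Acvr1, Bmpr1a and Igf1r regions, in receptors of activin, BMP and insulin-like growth factor, stayed at or below 144.35. In the adhesion list, with 2 against 0.396 (5.05, 0.612 to 18.3), Emilin2 held 3 regions, 1 of them high-scoring, and Selp, which encodes P-selectin, had 298.88 in intron 8. The highest scores of Ptk2, Ncam1, Itga9 and Adam19 were 177.31, 144.46, 85.37 and 126.66. Among immune kinases and phosphatases, with 1 against 0.759 (1.32, 0.0334 to 7.34), Ptpre, a receptor tyrosine phosphatase, scored 332.38 in intron 7, while Prkce, Map3k5, Ptprc and Prkca reached 175.64, 172.91, 151.66 and 150.19. Ptprc encodes the leukocyte antigen CD45.

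Chromatin regulators held 2 against 0.658 (3.04, 0.368 to 11), with scores of 322.39 in Smarca2, an ATPase of the SWI/SNF complex, and 292.64 in Kdm6a. The Smarca2 region lay in intron 27, centred 31 bp from the TSS of a shorter transcript. Arid5b, Kdm4c and Smarca4 reached 155.82, 147.62 and 120.19. The synapse list had 1 region of at least 200, in Csmd1, where its length would hold 5.99 (0.167, 0.00422 to 0.93), and Dlg2, Rbfox1, Grik1 and Cdh13 reached 195.56, 162.50, 156.80 and 112.91. The ratio at this score was not set against genes of like intron GC. The metabolic list held none where 1.03 would be held (upper bound of the ratio 3.59), and its highest scores were 165.21 in the glucose transporter gene Slc2a1, 151.51 in Wwox, 149.53 in Acacb and 148.51 in Cpt1a, both genes of fatty acid metabolism. The phosphodiesterase gene Pde4d held 10 regions where its length would hold 10.3, none above 97.67. The cell cycle and repair list also held none (0.483 by length, upper bound 7.64), with 146.40 in Cdk14, 142.05 in Xrcc4 and 105.47 in Ccnd3, and Mad1l1 held its largest number, 6 against 2.45 by length.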

How the data were processed

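The authors mapped C/EBPα ChIP-seq reads to mm9, called regions against an IgG mock at a p-value of 1e-05 and deposited them with a score per region. The submitters' processing notes name Bowtie 0.12.8, MACS 1.4.2 and bedtools 2.16.2. Whether libraries were pooled is not given in the sources used here. The list gives no reads, and the mapped reads that the study shows per library were not used here.

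Regions were placed on the GENCODE annotation of NCBIM37 (22359 protein-coding genes). Where genes overlapped, the gene with the shorter span was the host. Eligible length excluded bases given as N. Words were sought within 70 bp of centres and 1000 bp away, since summits were not in the list. Shares were compared by Fisher's exact test (two-sided, threshold 0.05). For centres against flanks it took windows as independent, although a centre and its flanks come from the same region. Intervals are at 95%, exact binomial (Clopper-Pearson), exact Poisson or exact conditional for ratios. Repeats are 32-mers found at more than 1 position. Word search and intervals were tested on simulated data.

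Named genes were the hosts of the 20 highest scores, the 10 hosts with most regions (with ties) and most per 100 kb, those with primer products, and up to 4 by score and 2 by number per list. C130026I21Rik and Sept6 were named for width and chromosome X, and 4 genes for regions close to the distance limit. Some items that the rule would name are not reported here. The members and lists were chosen with earlier results of these data known. Alternatives were scores of at least 100, 200 and 300, 10 kb from a TSS, TSSs of all transcripts, no exon overlap, chromosome X left out, 1 region per host, intron 1 of any transcript, and other words, windows and flanks. Python 3.11.15, numpy 2.4.6, scipy 1.17.1, pandas 2.3.3, numba 0.67.0 and matplotlib 3.10.9 were used.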

Additional observations from a re-analysis of the deposited data

How the results depend on the processing

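The share of intronic distal regions, 37.1%, became 31.7% and 25.8% at scores of at least 100 and 200, 33.2% beyond 10 kb, 34.7% with the TSSs of all transcripts, 32.1% without exon overlap and 39% without repeated regions (added after seeing the data). The median score became 78.9 with 1 region per host. The density ratio of intron 1 to later introns, 0.956, became 1.69 at scores of at least 200, 1.57 with the TSSs of all transcripts in addition (added after seeing the data), and 1.11 (1.05 to 1.18) without exon overlap, where the eligible length was not reduced to match. The cause of that change was not tested. The excess of the C/EBP core word at centres over flanks, 1.05 percentage points, became 0.948 (adjusted p = 0.0618, Fisher's exact test) in windows of 150 bp and 0.767 (adjusted p = 0.0551, Fisher's exact test) with flanks at 2000 bp, and for the word TTACNNAA the difference was -2.41. The difference from other regions, -1.39 points, did not pass at scores of at least 100 (-2.52), at 200 (-5.01) or with 1 region per host (-0.987), where fewer regions were tested. The gene lists whose interval excluded 1 were 2, the synapse and the adhesion list. Without chromosome X and among genes of like intron GC (added after seeing the data) only the synapse list remained, a count of 1. At scores of at least 200 the count was 3, with the small GTPase (1.23 to 8.82) and cytokine (1 to 29.8, a lower bound that rounds to 1, from 2 regions) lists besides the synapse list, and without the adhesion list (0.612 to 18.3). All these counts of lists are descriptions, since the lists were chosen with earlier results of these data known and no allowance was made for their number. The pair of small GTPase regions in Ssh2 also shares a host. With the TSSs of all transcripts the cytokine list would hold only 1 of its 2 regions. With 1 region per host the number per gene is capped and the length is not, so lists of long genes fall by construction, and nothing is read from that setting. The hosts with 3 or more regions fell to 20 at scores of at least 100, as fewer regions were counted. The lower share of scores of at least 200 kept its direction and passed the test at thresholds of 100 and 300, beyond 10 kb, without exon overlap and without chromosome X. No paired analysis was possible because only 1 library has a file.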
